A study of Homo sapiens with 6 samples.

Results

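The cerebellar granule lineage factors described here are 9 transcription factor genes, ATOH1, BARHL1, BARHL2, ZIC1, ZIC2, ZIC4, ZIC5, MEIS1 and MEIS2, of 19970 RefSeq protein-coding genes on chromosomes 1 to 22 and X. They were chosen by name, with earlier results of these data known. Their data are all peaks and all differential regions that touched the RefSeq GRCh38 span of each gene extended by 5 kb on either side. The cells were D283, an established human line of medulloblastoma, a tumor of the cerebellum. They were transfected with 30 nM siRNA against OTX2 (OTX2low) or with a non-silencing scramble siRNA (OTX2high), and then grown as floating tumorspheres in neural precursor medium with FGF and EGF. OTX2 is a homeodomain factor highly expressed in many of these tumors. Histone marks do not measure OTX2 itself, so the silencing was not checked here. H3K4me3, which sits at promoters in use or held ready, and H3K27me3, laid down by Polycomb complexes at silent genes, were each mapped by ChIP-seq in 1 library per condition. No value therefore has a replicate check, and every interval covers counting error only. A single cell line is the model, and it stands for no other tumor or for normal granule cells.

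In development, granule neurons arise from the upper rhombic lip, which is marked by the basic helix-loop-helix factor ATOH1. In the mouse, ATOH1 is required for granule cell precursors to form, and the BarH-like homeodomain factor BARHL1 acts in the same lineage as the cells migrate and survive. ZIC genes encode zinc finger factors related to GLI proteins and are widely used as granule lineage markers, while MEIS1 and MEIS2 are TALE homeodomain cofactors of PBX and HOX proteins. Genes of this kind often carry H3K4me3 and H3K27me3 together in progenitors, a state called bivalent. In a population of cells, overlap of the marks does not show that they share an allele.

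The H3K4me3 libraries held 20914582 (OTX2low) and 33137731 (OTX2high) tags after filtering. The H3K27me3 libraries held 33885628 (labelled OTX2low) and 40271458 (labelled OTX2high). For H3K27me3 the file headers of the peak lists name the opposite condition to the sample labels. The lists are called here by their sample labels, and the differential regions by the names in the differential table, whose depths go with the headers. If the sample labels are right, the peak lists stand as named and each direction of H3K27me3 differential regions given below would be reversed. If the headers are right, those directions stand and the labels OTX2low and OTX2high of the H3K27me3 peak lists would be exchanged. The H3K27me3 list labelled OTX2low was called against IgG of 85840108 tags, as was the H3K4me3 list of OTX2high. The H3K27me3 list labelled OTX2high had IgG of 55079542 tags, as had the H3K4me3 list of OTX2low. In IgG depth, each H3K27me3 list thus matches the H3K4me3 list of the condition named in its header. Which naming is right was not tested. Per the file headers, MACS2 used a fragment length of 78 bp for the list labelled OTX2low and 169 bp for the list labelled OTX2high, so widths of H3K27me3 peaks cannot be compared between these lists as a change.

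The promoters that lay wholly inside a listed H3K4me3 differential region are shown first. These regions are 1100 to 6200 bp long, and a value is that of the whole region and not of the promoter alone. At ZIC1, ZIC5 and MEIS1 its interval includes the median over genes given below. The promoters are 300 bases from RefSeq (GRCh38.p14), 250 before the transcription start and 50 from it on, written along the gene's own strand. Capitals mark each match to the letters GGGTGG or their reverse complement CCACCC, a core of ZIC and GLI class sites.
BARHL1, chr9:132582356-132582655, plus strand: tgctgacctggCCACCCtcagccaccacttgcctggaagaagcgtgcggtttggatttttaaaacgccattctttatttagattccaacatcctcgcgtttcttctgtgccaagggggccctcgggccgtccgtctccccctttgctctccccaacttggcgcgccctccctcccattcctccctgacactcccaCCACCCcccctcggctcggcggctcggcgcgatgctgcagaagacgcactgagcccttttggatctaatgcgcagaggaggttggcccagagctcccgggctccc
ZIC1, chr3:147409115-147409414, plus strand: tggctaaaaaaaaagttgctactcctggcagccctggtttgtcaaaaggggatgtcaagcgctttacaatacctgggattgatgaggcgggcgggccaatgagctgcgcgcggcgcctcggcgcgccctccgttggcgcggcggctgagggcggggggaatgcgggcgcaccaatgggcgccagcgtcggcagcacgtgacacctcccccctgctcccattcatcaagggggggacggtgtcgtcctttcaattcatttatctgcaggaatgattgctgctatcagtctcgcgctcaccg
ZIC5, chr13:99969123-99969422, minus strand, 1 of 3 annotated starts: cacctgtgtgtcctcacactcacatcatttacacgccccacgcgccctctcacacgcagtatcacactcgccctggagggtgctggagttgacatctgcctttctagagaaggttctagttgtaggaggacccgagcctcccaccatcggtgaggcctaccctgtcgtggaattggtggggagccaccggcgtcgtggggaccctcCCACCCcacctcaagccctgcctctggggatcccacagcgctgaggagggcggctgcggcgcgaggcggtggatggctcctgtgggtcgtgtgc
MEIS1, chr2:66434875-66435174, plus strand: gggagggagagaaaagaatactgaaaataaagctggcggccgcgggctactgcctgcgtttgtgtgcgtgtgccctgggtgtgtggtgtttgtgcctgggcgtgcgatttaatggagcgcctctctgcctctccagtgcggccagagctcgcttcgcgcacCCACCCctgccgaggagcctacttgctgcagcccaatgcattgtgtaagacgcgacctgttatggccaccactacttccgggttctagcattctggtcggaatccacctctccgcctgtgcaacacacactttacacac
The BARHL1 promoter held GGGTGG class matches starting 239 and 55 bases before the start, the MEIS1 promoter a match starting 89 bases before it, and this ZIC5 promoter a match starting 44 bases before it. ZIC1 had none. Over the 15 promoters of the 9 genes, 9 had a match, against 34.3% of 34787 RefSeq promoters. TAATCC, the K50 homeodomain letters bound by OTX2 and CRX, was in none of the 15 on either strand, where 6.34% of all promoters held it. The E-box CAGCTG and the TALE letters TGACAG each lay in 1 promoter, both of ZIC4, against 17.9% and 15.8% of all promoters. All motifs were searched on both strands, and in these 15 promoters no match overlapped a match of another motif. A match or its absence in such a short window says nothing about binding. The observed over expected ratio of CpG dinucleotides was 0.704 at BARHL1, 0.925 at ZIC1 and 0.706 at MEIS1, above the median of 0.578 over all promoters. This ZIC5 promoter, at 0.587, stood near that median.

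Each of the 9 genes carried H3K4me3 peaks in both conditions, where 75.7% of all genes did in OTX2low and 77% in OTX2high. A transcription start lay under an H3K4me3 peak at 9 of 9 genes in OTX2low and at 8 of 9 in OTX2high. The exception was BARHL1 in OTX2high, whose nearest peak ended 351 bp from the start. Peaks covered 2.82 to 10.0 kb per gene in OTX2low, with a median of 5.02 kb, and 1.83 to 11.7 kb in OTX2high, with a median of 4.82 kb. BARHL1 and BARHL2 had more covered bases in OTX2low and the other 7 genes more in OTX2high. Of 14954 genes with peaks in both lists, 13.7% covered more bases in OTX2low, and the OTX2high library, which has more tags, gave the longer list.

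**Figure D1:**
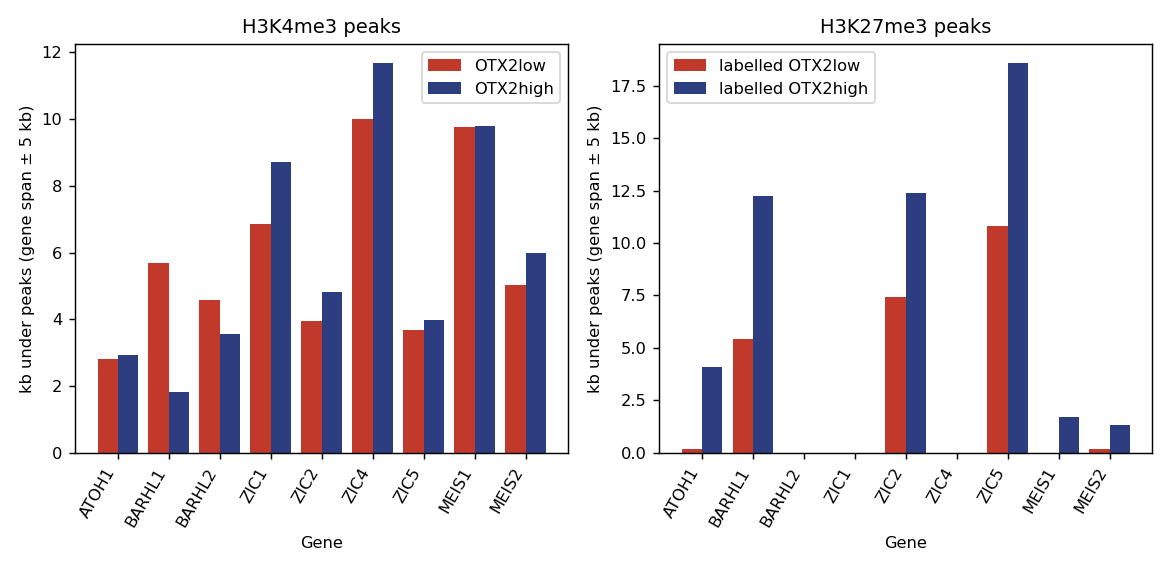
Length under peaks in kb (vertical axes) for each gene, within its span extended by 5 kb, in red for the OTX2low and in blue for the OTX2high list (H3K27me3 lists by sample label). BARHL1 stands out on the left with 5.69 kb in OTX2low and 1.83 kb in OTX2high, and on the right BARHL2, ZIC1 and ZIC4 have no H3K27me3 peak.

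The authors' differential table listed 14 distinct H3K4me3 regions at 7 of the genes, against a region at 56.6% of all genes and at 71.8% of genes with peaks in both lists. Of the 14, 4 were called higher in OTX2low and 10 higher in OTX2high. After recentring on the median over genes given below, 5 of those 10 turn to the OTX2low side and 5 do not. Genes with at least 1 region called higher in OTX2low were BARHL1 and BARHL2, that is 2 of 9, against 13.2% of all genes and 15.4% of genes with peaks in both lists. At least 1 region called higher in OTX2high lay at 7 of 9 genes, against 50.3% of all genes and 65.1% of genes with peaks in both lists. Across the 10752 genes with a finite value, the median log2 ratio of OTX2low over OTX2high was -0.52 in the region with the most reads, so a value near it is that of a typical called gene. The 7 members with a region had a median of -0.44. Apart from BARHL1 their values ran from -0.78 to -0.41, within -0.25 to 0.12 of the median over genes. ZIC2 and ATOH1 had no listed H3K4me3 region. The table lists only regions past its threshold, so it holds no value for them.

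A value in that table is a normalized read number, the reads of a region divided by a constant per library. A single H3K4me3 read was worth 1.25 in OTX2low and 0.798 in OTX2high, and the log2 ratios and their 95% intervals here were computed from the read numbers recovered with these steps. The authors' own log2 column runs the other way, OTX2high over OTX2low. Their adjusted p compares the reads of 2 libraries and not the conditions.

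**Figure D2:**
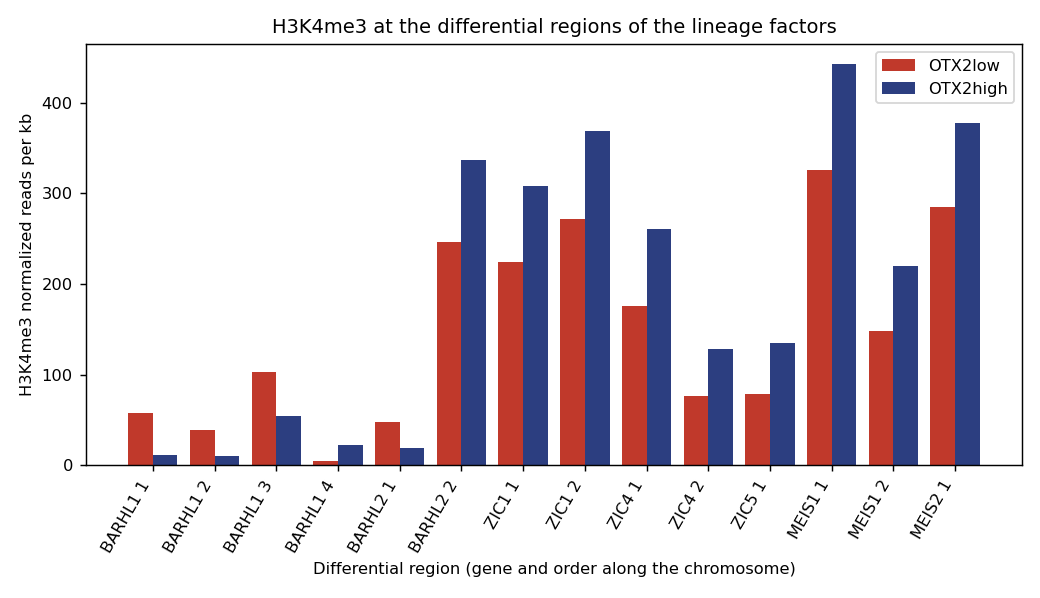
H3K4me3 normalized reads per kb (vertical axis) in the 14 differential regions, numbered along the chromosome within each gene, with OTX2low in red left of OTX2high in blue. The first 3 BARHL1 regions and the first BARHL2 region are higher in OTX2low and the other 10 higher in OTX2high, of which 5 (at BARHL2, ZIC1, MEIS1 and MEIS2) turn after recentring on the median over genes. Regions of ZIC1 and ZIC4 within reach of both genes are drawn once, under ZIC1.

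ATOH1, the proneural factor that defines the lineage, had H3K4me3 over its start in both lists, with covered lengths that differed by 106 bp. The gene spans chromosome 4, 93828753 to 93830964, on the plus strand. Peaks covered 2.82 kb in OTX2low and 2.93 kb in OTX2high, and the start lay under a peak in each. The fold enrichment at the summit, a ratio over local background that describes a peak within its own list, was 29.1 in OTX2low and 35.8 in OTX2high. These values stood at the 68.9th and the 72.0th percentile of their lists. H3K27me3 had 2 peaks over 0.174 kb in the list labelled OTX2low and 9 peaks over 4.07 kb in the list labelled OTX2high, or 1.42% and 33.4% of the window. The widest peak of the list labelled OTX2high, 1764 bp, began 219 bp after the start and ran over most of the gene. No differential region of either mark was listed.

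BARHL1, the homeodomain factor of migrating granule cells, had the highest H3K4me3 ratio of OTX2low over OTX2high among the 9 genes, and it was called higher in OTX2low over the promoter and the 3' end of the gene. The gene spans chromosome 9, 132582606 to 132590252, on the plus strand. The region at 132579201 to 132585400, which runs from -3405 to 2794 bp around the start, had 354.8 normalized reads in OTX2low and 72.6 in OTX2high. That is 4.89-fold higher in OTX2low, a log2 ratio of 2.29 (1.94 to 2.65) from 283 and 91 reads, with the authors' adjusted p listed as 0 in the authors' deposited table. Relative to IgG the region stood at 12.5 in OTX2low and 3.03 in OTX2high. Of 8352 listed regions with at least as many reads, 8 had a log2 ratio this high, this region included. Taken as the region with the most reads, BARHL1 was past 2-fold toward OTX2low, as were 5.33% of all genes, and it was the only member to be so.

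The other BARHL1 regions lay downstream and held fewer reads. The region 5.90 to 7.79 kb after the start, which crosses the 3' end of BARHL1, had 74.0 normalized reads in OTX2low and 19.9 in OTX2high, a log2 ratio of 1.89 (1.19 to 2.63). The next, 7.90 to 8.89 kb after the start and just past the annotated end, had 102.8 normalized reads in OTX2low and 54.3 in OTX2high, a ratio of 0.92 (0.44 to 1.41). The last began directly after it and went the other way. It reaches into DDX31, an RNA helicase gene, and had 7.52 normalized reads in OTX2low, 6 reads, and 35.9 in OTX2high, 45 reads, a log2 ratio of -2.25 (-3.78 to -1.02). With reads pooled over all 4 regions, BARHL1 stood at 1.56.

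The BARHL1 peaks were of middling strength even in OTX2low. OTX2low had 5 H3K4me3 peaks of 387 to 1855 bp over 5.69 kb, and OTX2high had 3 peaks of 378 to 883 bp over 1.83 kb. Their highest fold enrichment was 9.99 in OTX2low and 6.63 in OTX2high, at the 44.4th and 42.0th percentile of their lists. The covered length was 3.11 times as long in OTX2low, and 17 of 14954 genes with peaks in both lists had a ratio at least as high. Per kb the promoter region held 57.2 normalized reads in OTX2low and 11.7 in OTX2high, below the region over the ZIC1 start, with 224 in OTX2low and 309 in OTX2high, and that over the MEIS1 start, with 325 in OTX2low and 443 in OTX2high.

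H3K27me3 peaks lay along BARHL1 in both lists. There were 19 peaks over 5.40 kb in the list labelled OTX2low and 10 peaks over 12.2 kb in the list labelled OTX2high, which is 30.6% and 69.3% of the window. The start was under a peak in both. The summits reached fold enrichments of 9.10 (labelled OTX2low) and 11.4 (labelled OTX2high), at the 99.4th and 99.7th percentile of their lists. Of the OTX2low H3K4me3 bases, 42.0% lay under H3K27me3 peaks of the list labelled OTX2low and 86.3% under those of the list labelled OTX2high. Of the OTX2high H3K4me3 bases these shares were 11.0% and 60.7%. No H3K27me3 differential region was listed at BARHL1, so the table holds no value for a change of that mark there.

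**Figure D3:**
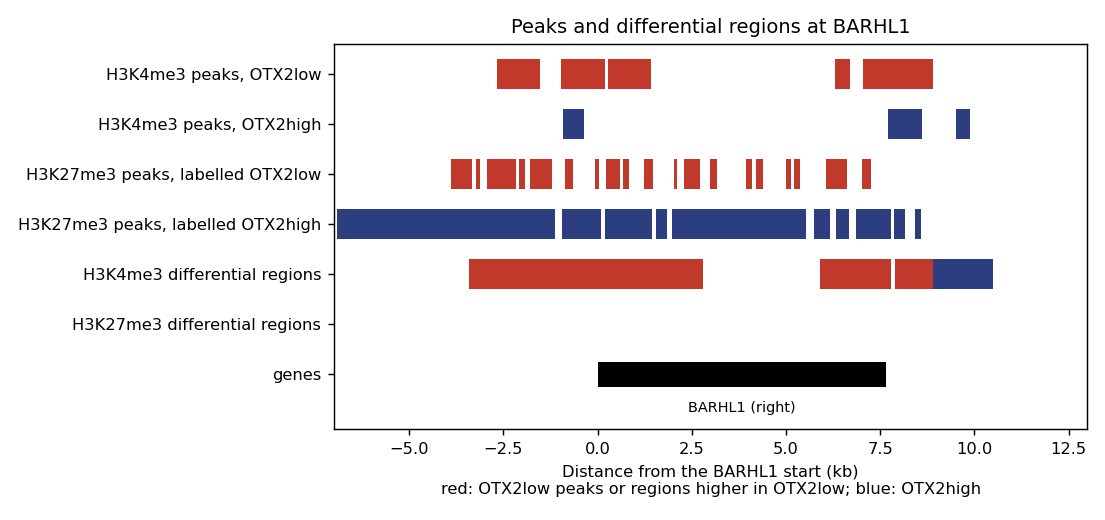
Map of BARHL1, with distance from its start in kb on the horizontal axis and a row each for the peaks of the 4 lists, the differential regions of each mark and the gene, which is transcribed to the right; only peaks that touch the gene extended by 5 kb are drawn. Red marks peaks of OTX2low and regions higher in OTX2low, blue those of OTX2high (H3K27me3 peaks by sample label). H3K4me3 peaks cover the start in OTX2low and not in OTX2high, within a stretch with H3K27me3 peaks in both lists, and the H3K27me3 row of differential regions is empty.

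BARHL2, the paralog of BARHL1, had no H3K27me3 peak in either list and showed both H3K4me3 directions. It spans chromosome 1, 90711539 to 90717302, on the minus strand. A broad peak covered the start in each condition, 4306 bp wide in OTX2low and 3566 bp in OTX2high. The region inside the gene, 1502 to 2901 bp after the start, had 66.4 normalized reads in OTX2low and 26.3 in OTX2high, a log2 ratio of 1.34 (0.68 to 2.01). The stronger region lies upstream of the start, at 90718101 to 90719400. It had 319.7 normalized reads in OTX2low and 438.0 in OTX2high, a ratio of -0.45 (-0.67 to -0.24). The weaker internal region was thus higher in OTX2low, while the upstream one was called higher in OTX2high but turned to 0.070 once the median over genes was subtracted. Peaks covered 4.59 kb in OTX2low and 3.57 kb in OTX2high, and 353 of 14954 genes had a ratio of covered length as high.

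ZIC1 and ZIC4, a divergent pair of zinc finger genes with outer starts 2.82 kb apart on chromosome 3, had wide H3K4me3 peaks and no H3K27me3 peak in any list. ZIC1 spans 147409365 to 147416719 on the plus strand, and ZIC4 147386046 to 147406543 on the minus strand. The peak over the ZIC1 start was 5681 bp wide in OTX2low and 6796 bp in OTX2high, each at the 99.1st percentile of widths in its list. Of the 4 annotated ZIC4 starts, 1 lay under a peak in each condition.

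The 4 regions at the pair were called higher in OTX2high, by amounts near the median over genes, and recentring on that median turned the 2 at ZIC1. The region over the ZIC1 start, at 147408801 to 147410100, had 290.8 normalized reads in OTX2low and 401.3 in OTX2high, a log2 ratio of -0.46 (-0.70 to -0.24). The region inside ZIC1 had 325.9 normalized reads in OTX2low and 441.9 in OTX2high, a ratio of -0.44 (-0.66 to -0.22). Both also fall in the ZIC4 window. Of the regions inside ZIC4, that at 147394101 to 147395300 had 210.6 normalized reads in OTX2low and 312.7 in OTX2high, a ratio of -0.57 (-0.84 to -0.31). The other, at 147397401 to 147399200, had 137.9 normalized reads in OTX2low and 231.3 in OTX2high, a ratio of -0.75 (-1.08 to -0.43). Recentred, the ZIC1 regions stood at 0.060 and 0.085 and those inside ZIC4 at -0.046 and -0.22.

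ZIC5 and ZIC2, the other divergent ZIC pair, carried both marks in every list. They lie on chromosome 13, ZIC5 at 99962964 to 99971909 on the minus strand and ZIC2 at 99981784 to 99986765 on the plus strand, with starts 9.88 kb apart. H3K27me3 peaks covered 10.8 kb (labelled OTX2low) and 18.6 kb (labelled OTX2high) of the ZIC5 window, or 56.9% and 98.0%. In the ZIC2 window they covered 7.44 kb (labelled OTX2low) and 12.4 kb (labelled OTX2high), or 49.7% and 82.5%. All 3 ZIC5 starts lay under H3K27me3 peaks in both lists. The ZIC2 start lay between peaks, 411 bp from the nearest in the list labelled OTX2low and 8 bp from it in the list labelled OTX2high.

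The pair shared the only H3K27me3 differential region of all 9 genes. It spans 54 kb, chromosome 13, 99942001 to 99996000, and also holds the noncoding genes LINC00554 and CLYBL-AS3. By the names in the differential table it had 5749 normalized reads in OTX2low and 4680 in OTX2high, a log2 ratio of 0.30 (0.24 to 0.35), and stood over IgG at 7.27 and 5.78 in OTX2low and OTX2high. The median over genes with a called H3K27me3 region was 0.33, so this direction turns on recentring, to -0.032. These are 2 of 9 genes with a region called higher in OTX2low, against 7.98% of all genes, and 0 of 9 with one higher in OTX2high, against 3.88%, by the same names. A region at least 2-fold higher in OTX2high was found at 0.01% of all genes and at no member.

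For H3K4me3, 1 differential region was listed at the pair, and ZIC2 has no value. The region over the inner ZIC5 start, at 99968601 to 99969700, had 86.5 normalized reads in OTX2low and 148.4 in OTX2high, a log2 ratio of -0.78 (-1.20 to -0.37). This was the lowest value among the members' strongest regions, at -0.25 relative to the median over genes, and its interval includes that median. ZIC5 peaks covered 3.67 kb in OTX2low and 3.97 kb in OTX2high, and ZIC2 peaks 3.95 kb in OTX2low and 4.82 kb in OTX2high. In the ZIC5 window 55.4% (H3K27me3 list labelled OTX2low) and 95.8% (labelled OTX2high) of the OTX2low H3K4me3 bases were also under H3K27me3 peaks.

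**Figure D4:**
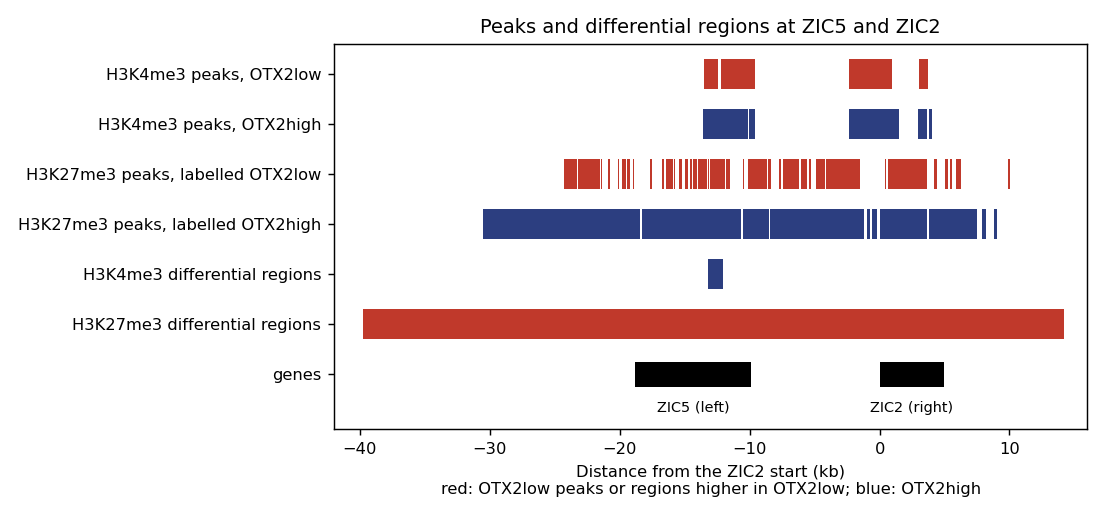
Map of ZIC5, transcribed to the left, and ZIC2, transcribed to the right, with distance from the ZIC2 start in kb on the horizontal axis, rows as in the map of BARHL1, and only peaks that touch either gene extended by 5 kb drawn. Peaks of OTX2low and regions higher in OTX2low are red, those of OTX2high blue (H3K27me3 peaks by sample label, H3K27me3 regions by the names in the differential table). H3K27me3 peaks run across both genes in both lists, under a single H3K27me3 region of 54 kb whose direction turns on recentring, and 1 short H3K4me3 region lies at ZIC5.

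MEIS1 had the strongest H3K4me3 start of the 9 genes. It spans chromosome 2, 66435125 to 66573869, on the plus strand. The peak over its start was 5011 bp wide in OTX2low and 4835 bp in OTX2high, with fold enrichments of 50.8 and 50.6 in OTX2low and OTX2high, at the 97.3rd and 87.6th percentile of their lists. The region over the start, at 66433501 to 66436300, had 911.3 normalized reads in OTX2low and 1240 in OTX2high, a log2 ratio of -0.44 (-0.57 to -0.32), which turns to 0.081 on recentring. A further region, past the gene's end at the noncoding gene LINC01798, had 280.8 normalized reads in OTX2low and 417.2 in OTX2high, a ratio of -0.57 (-0.80 to -0.34).

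MEIS2 resembled MEIS1 at its starts. It spans chromosome 15, 36889204 to 37101311, on the minus strand, and a peak of 4758 bp in OTX2low and 4955 bp in OTX2high covered both starts in the promoter table. The region at 37100301 to 37101600, over the annotated 5' end of the gene and upstream of the starts in the promoter table, had 371.1 normalized reads in OTX2low and 491.4 in OTX2high, a log2 ratio of -0.41 (-0.61 to -0.20), which turns to 0.12 on recentring. H3K27me3 was slight at both MEIS genes. MEIS2 had 1 peak over 0.179 kb in the list labelled OTX2low and 4 over 1.30 kb in the list labelled OTX2high. MEIS1 had none in the list labelled OTX2low and 3 over 1.71 kb in the list labelled OTX2high, the nearest 141499 bp from its start.

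**Figure D5:**
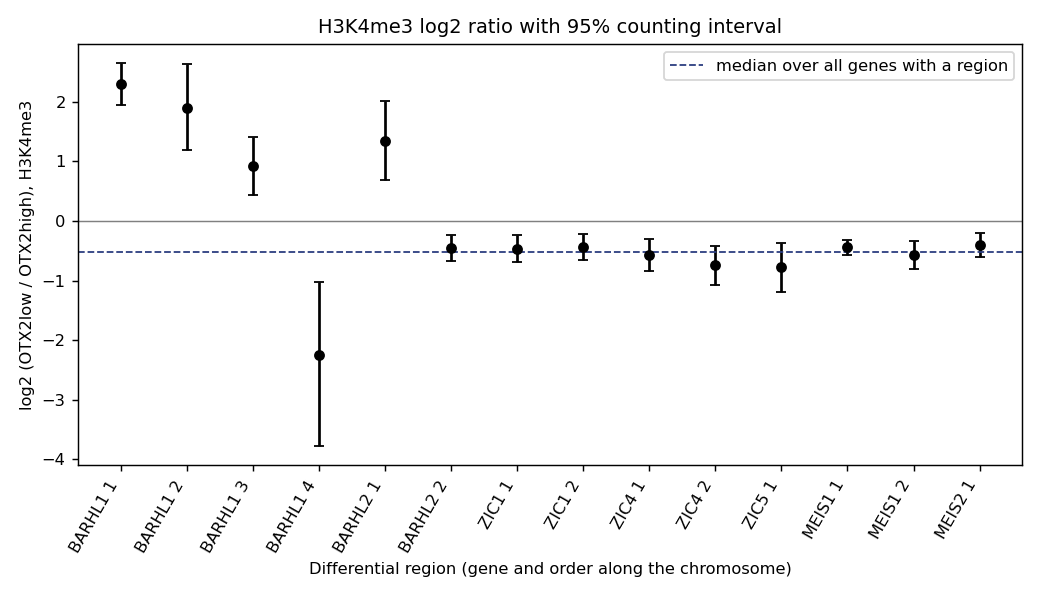
Log2 ratio of H3K4me3 reads, OTX2low over OTX2high (vertical axis), in the same 14 regions, with bars for the 95% counting interval. The dashed line is the median over all genes with a region, -0.52. The first 3 BARHL1 regions and the first BARHL2 region lie above 0, the last BARHL1 region lies at -2.25, and the intervals of the other 9 regions include the dashed line, 5 of them with values that turn positive when recentred on it.

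Read across the marks, H3K27me3 ran from wide cover at BARHL1, ZIC2 and ZIC5 to no peak at BARHL2, ZIC1 and ZIC4. ATOH1, MEIS1 and MEIS2 lay between. An H3K27me3 peak lay at 5 of the 9 genes in the list labelled OTX2low and at 6 in the list labelled OTX2high, against 19.8% and 29.5% of all genes. Bases under peaks of both marks in all 4 pairs of lists were present at 4 genes, ATOH1, BARHL1, ZIC2 and ZIC5, against 6.32% of genes. In any pair of lists they were present at 5, with MEIS1 added, against 12.6%. At ATOH1 the shared stretch was 78 bp with the list labelled OTX2low and at least 1764 bp with the list labelled OTX2high. That stretch of 78 bp was a single peak with a −log10 q of 3.35, below the stricter setting of 10. ZIC1, ZIC4, BARHL2 and MEIS2 had no base under both marks in any pair. Among the 4 genes with both marks in every pair, BARHL1 is the 1 with H3K4me3 called higher in OTX2low over its start. No test of a link between the marks was made.

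The authors' deposited table of clusters, groups of nearby H3K4me3 regions, placed 4 of the 9 genes in a cluster, against 12.7% of all genes. The BARHL1 cluster held 3 regions over 4.6 kb, 2 higher in OTX2low and 1 higher in OTX2high, with an adjusted p of 0.00204 in the authors' deposited table. It began at 132588501, so it held the downstream regions and not the region over the promoter. The BARHL2 cluster held 3 regions over 17.3 kb, 1 higher in OTX2low and 2 in OTX2high, and ran past the BARHL2 window. ZIC1 and ZIC4 shared a cluster of 5 regions over 31 kb, 1 higher in OTX2low and 4 in OTX2high. It ran past both windows, and the region higher in OTX2low is not among those described at the pair.

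Around these factors, a list of 42 further genes of the granule lineage and of MEIS and ZIC partners was read the same way. H3K4me3 peaks lay at 40 of them in OTX2low and 41 in OTX2high. Of the 42, 18 had a region called higher in OTX2low and 24 a region called higher in OTX2high, with some in both groups, beside the 13.2% and 50.3% of all genes given above. The region with the most reads was at least 2-fold higher in OTX2low at 11 genes, against 5.33% of all genes. It was at least 2-fold higher in OTX2high at 4, against 7.42%. Some of these regions held few reads, as given below. The list was chosen with earlier results of these data known, so these shares are a description and no test. The median log2 ratio of the list was -0.44, beside -0.52 over genes. NHLH1, a bHLH factor made as neurons are born, stood at 4.46 (4.19 to 4.73), with 2154 normalized reads in OTX2low and 98.1 in OTX2high. RBFOX3, the NeuN splicing factor of mature neurons, stood at 2.28 (1.96 to 2.61), with 409.9 normalized reads in OTX2low and 84.6 in OTX2high. This is the region with the most reads of 8 listed at RBFOX3, and does not describe the whole gene. H3K4me3 peaks covered 4451 bp there in OTX2low and 3300 bp in OTX2high. H3K27me3 peaks covered 287529 bp in the list labelled OTX2low and 493729 bp in the list labelled OTX2high.

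At the other 4 of the 6 genes with the largest ratios in this list, the ratio rests on a weak region. There the listed region with the most reads held at most 46 reads in either condition, and the values below are of that region. ETV1, an ETS factor, had 36 reads in OTX2low and 11 in OTX2high, a log2 ratio of 2.36 (1.36 to 3.49). The guidance receptor ROBO3 had 14 reads in OTX2low and 1 in OTX2high, a ratio of 4.46 (1.74 to 9.86), and the homeodomain factor LHX2 had 12 reads in OTX2low and 1 in OTX2high, a ratio of 4.24 (1.48 to 9.65). CNTN1, a neural adhesion protein, had 6 reads in OTX2low and 46 in OTX2high, a ratio of -2.29 (-3.81 to -1.06). These few reads do not describe H3K4me3 over the whole genes. Peaks covered 3690 bp in OTX2low and 3542 bp in OTX2high at ROBO3, and 3481 and 3738 bp at LHX2. In the same order they covered 3689 and 3665 bp at ETV1, and 1541 and 2182 bp at CNTN1.

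Markers were read from chromatin alone, which is not expression and cannot check the label. Of 9 granule lineage markers, 4 of them members, 7 had an H3K4me3 peak in OTX2low and 8 in OTX2high. Of all genes, 75.7% had one in OTX2low and 77% in OTX2high. H3K27me3 peaks lay at 6 of the 9 markers in each list, against 19.8% (labelled OTX2low) and 29.5% (labelled OTX2high) of all genes. CNTN2, an adhesion protein of early granule neurons, had no H3K4me3 peak. GABRA6, a receptor subunit of mature granule neurons, had 458 bp of H3K4me3 peaks in OTX2high alone. PAX6 had 8632 bp under H3K4me3 peaks in OTX2low and 7701 bp in OTX2high, with a log2 ratio of 0.75 (0.52 to 0.99). NEUROD1 had 4977 bp in OTX2low and 5071 bp in OTX2high, with a log2 ratio of -0.70 (-0.87 to -0.52). RBFOX3 and the markers that are members are given above. Of 5 glial markers, 3 had an H3K4me3 peak in each condition, GFAP, AQP4 and OLIG2, and SOX10 and MBP had none. H3K27me3 peaks lay at 3 of these 5 in each list. OLIG2 had 1023 normalized reads in OTX2low and 362.2 in OTX2high, 2.82-fold higher in OTX2low with a log2 interval of 1.33 to 1.67. GFAP had 486.4 in OTX2low and 650.2 in OTX2high, and the MBP region 18 reads in OTX2low and 3 in OTX2high. The part of any shift in cell makeup in the values above was not tested, and a change in the share of cells that carry a mark and a change in the mark per cell cannot be told apart.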

How the data were processed

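ChIP-seq of D283 tumorspheres gave 1 library per mark and condition; the 2 IgG libraries, whose titles and labels name opposite conditions, were put in no group. The submitters' processing notes name Bowtie2 2.3.3.1, MACS2 2.1.1.20160309 and GRCh38. Peaks were called per library against an IgG library, keeping a q-value of at most 0.05, per the file headers. The authors deposited, for each peak, a pileup signal, a fold enrichment (ratio) over local background, and −log10 p and q values. Their diffReps 1.55.6 tables hold normalized read signal, a ratio over IgG, a log2 ratio, a p-value and an adjusted p-value from a G-test of 1 library against 1, with windows of 1000 bp (H3K4me3) and 10000 bp (H3K27me3), per the file headers. The diffReps command names hg19, per the file headers. Of the regions, 62.0% of H3K4me3 and 63.4% of H3K27me3 touch a peak of the same mark in the GRCh38 lists. The share expected under hg19 coordinates was not computed, so these shares do not settle the build. The coordinates were read as GRCh38.

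From these, reads were recovered by dividing by the value of 1 read, which gave whole numbers within 0.05 for 100% of values in both tables. Log2 ratios of OTX2low over OTX2high have exact conditional (Clopper-Pearson) intervals at 95%, which cover counting error only and understate it where reads are PCR copies. A G-test on the recovered reads, adjusted (Benjamini-Hochberg) over the 663990 H3K4me3 and 57553 H3K27me3 windows of the file headers, called 21714 of 21714 and 5401 of 5401 listed regions at 0.05; all were already the authors' calls. Overlap means at least 1 bp. The closing section gives the effect of stricter peaks, other windows and overlaps, tag scaling, recentring and summed regions. Interval and G-test code was tested on simulated reads. Python 3.11.15, scipy 1.17.1 and pandas 2.3.3 were used. All 9 genes are named; of the 42-gene list, the 6 with the largest log2 ratio of at least 1 in size. The genes and lists were chosen with earlier results of these data known.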

Additional observations from a re-analysis of the deposited data

How the results depend on the processing

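Of 94 values recomputed under other settings (peak strictness and overlap, window size, scaling, recentring, pooled regions), 35 counts of members stayed within 1.5 times and 41 gene ratios within their counting interval. With log2 ratios recentred on the median over genes, members with an H3K4me3 region higher in OTX2low numbered 6 and in OTX2high 4, and members with an H3K27me3 region higher in OTX2low (names of the differential table) 0 and in OTX2high 2. Under that recentring the H3K4me3 ratio turned positive at BARHL2 (0.070), ZIC1 and ZIC4 (0.085 each), MEIS1 (0.081) and MEIS2 (0.12). The ZIC4 value is that of the region inside ZIC1, and the regions inside ZIC4 stayed negative, at -0.046 and -0.22. ZIC4 is thus among the 6 members only through regions of ZIC1. The H3K27me3 ratio of ZIC2 and ZIC5 turned to -0.032. These turns follow by construction, since the values lie near the medians used. BARHL1 moved to 2.81. Without the 5 kb extension the upstream BARHL2 region dropped out, leaving its internal region at 1.34. With peaks kept at a −log10 q of at least 10, the H3K27me3 list labelled OTX2low reached 3 members, against 5 in full. Scaling by tags put ZIC2 and ZIC5 at 0.43 for H3K27me3. The G-test on recovered reads, chosen after seeing the data, called 14 of 14 H3K4me3 regions and the 1 H3K27me3 region. No paired analysis was possible because each condition has 1 library. Depth limits the weakest regions most, and genes absent from the differential tables have no value.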

Other observations

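At the far end of MEIS1 lies a further stretch with both marks. H3K4me3 peaks at and past the gene's end, near LINC01798, included one of 3372 bp in OTX2low and one of 4007 bp in OTX2high. In the list labelled OTX2high 3 H3K27me3 peaks lay there, the widest of 1913 bp, and 1362 bp of the OTX2low H3K4me3 peaks and 1344 bp of the OTX2high ones were also under them. The list labelled OTX2low had no H3K27me3 peak there.

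Inside ZIC4, the 3 annotated starts at the outer end of the gene lay outside H3K4me3 peaks in both conditions, and their promoters had observed over expected CpG ratios of 0.107, 0.283 and 0.71. The inner start, under the peak in both conditions, had 0.811. Of these 3 outer promoters, 1 held a TGACAG match, starting 15 bases before its start.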
